A study of Mus musculus with 44 samples.

Results

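Cmbl, Tppp3, Adam19, Lyve1, Megf9, Nav2, Eya4 and Aspa were the 8 genes followed here, out of 19938 genes that the arrays measured with a probe set of their own. They were picked by name from the genes that were lower in KO than in WT day 2 Ly6C- macrophages (MFs) on these same arrays, so that difference chose them and is described below without a test. Each of the 8 had 1 probe set. The arrays measured RNA of MFs sorted from the tibialis anterior muscle of mice, injured by injection of the muscle-killing snake toxin cardiotoxin. CD45+ leukocytes were enriched on magnetic beads and sorted by Ly6C and by the MF antigen that Adgre1 encodes at days 1, 2 and 4 after injury, Ly6C+ cells being low and Ly6C- cells high in that antigen. There were 44 arrays in 10 groups. KO mice (C57B6/J, PPARg fl/fl, LysM Cre+) gave 4 arrays of Ly6C+ MFs at day 1, 5 of Ly6C+ and 5 of Ly6C- MFs at day 2, and 4 arrays labelled Ly6C+ at day 4. WT mice (C57B6/J) given rosiglitazone, at a dose not given in the sources used here, gave 3 Ly6C+ and 3 Ly6C- arrays at day 2. Untreated WT mice gave 4 arrays of Ly6C+ MFs at day 1, 6 of Ly6C+ and 6 of Ly6C- MFs at day 2, and 4 arrays labelled Ly6C+ at day 4. LysM-Cre is driven by the Lyz2 locus, which is active in monocytes and neutrophils as well as in MFs, and the labels name neither Cre nor a floxed allele in WT. The labels call the replicates biological but do not tie arrays to animals, and the design text speaks of 3 animals, so p-values measure the spread between arrays. Precision is limited by how many arrays a group has.

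PPARγ, the protein encoded by Pparg, is a nuclear receptor that binds fatty acids and, paired with RXR, switches on genes of lipid uptake and storage. Rosiglitazone is a drug that activates it. In injured muscle, inflammatory Ly6C+ MFs arrive first and give way to Ly6C- MFs that accompany the growth of new fibres. The 8 genes are not textbook members of one pathway: they encode a pair of enzymes (Cmbl, Aspa), 3 surface proteins (Adam19, Lyve1, Megf9), a pair of proteins of the cytoskeleton (Nav2, Tppp3) and a transcriptional coactivator (Eya4).

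The labels were checked against Pparg, Lyz2, Adgre1 and Ly6C signals, and the day 4 arrays went against theirs. Pparg itself was not lower in KO on its probe set, with differences between 0.00 and 0.24 on the log2 scale over the 4 KO and WT comparisons, and which exons that probe set reads was not analysed here. Lyz2, which holds the Cre insertion, averaged between 9.49 and 9.72 in the KO groups against 12.95 and 12.99 in WT at days 1 and 4. In WT day 2 arrays it split by replicate number, at 8.87 and 9.18 in replicates 1 to 3 against 12.81 and 12.86 in replicates 4 to 6 of Ly6C+ and Ly6C- MFs, while all rosiglitazone arrays were between 12.86 and 13.19. This split touches every comparison with untreated WT at day 2. Replicates 1 to 3 lay closer to the KO level of Lyz2, and replicates 4 to 6 to that of WT at days 1 and 4. KO and WT at days 1 and 4 thus had unlike Lyz2 signals too. What goes with the Lyz2 signal in other genes was not tested. The day 4 arrays, labelled Ly6C+ and low in the Adgre1 antigen, had a signal on the probe set shared by Ly6c1 and Ly6c2 of 9.83 in KO and 9.88 in WT, against 12.01 and 11.91 in day 2 Ly6C+ MFs of KO and WT, and an Adgre1 signal of 12.27 in both genotypes against 11.53. They are called day 4 MFs here. None of the 6 MF markers read (Adgre1, Csf1r and Mertk among them) was below the array median on all arrays of any group.

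In day 2 Ly6C- MFs, whose values chose the genes, all 8 were lower in KO than in WT, by 1.16 for Cmbl to 0.63 for Aspa on the log2 scale. The median of the 8 differences was -0.81, beside -0.03 over all genes. In 7 of the 8 genes every KO array lay below every WT array, where 0.597% of all genes did so, and Lyve1 was the exception. Ordered from the lowest difference over all genes, Cmbl was the 3rd, Adam19 the 4th, Tppp3 the 6th, Lyve1 the 7th, Megf9 the 8th, Nav2 the 12th, Eya4 the 14th and Aspa the 26th. The genes next to Aspa in that order were Alox5 at -0.63 and Vaultrc5 at -0.63, neither of them among the 8. These ranks and the lack of overlap are descriptions, because the same arrays chose the genes.

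Promoters were read where RefSeq (GRCm38.p6) gave a window of 300 bases around a transcription start, from 250 bases before it to 50 after, which was the case for 10 windows of 6 of the genes. The direct repeat bound by PPARγ with RXR, AGGTCA, any base and AGGTCA again, occurred on either strand in 0 of the 10 windows and in 13 of 32851 windows over all genes (0.0396%). The single site AGGTCA, which also counts every repeat, occurred on either strand in 2 of the 10 and in 16.3% of all windows. GAGGAAGT, a core sequence of the myeloid factor PU.1, occurred on either strand in 0 of the 10 and in 3.2% of all. Both AGGTCA matches were in windows of Adam19. Shown is a single window each of Adam19 and Nav2, the pair that also passed as lower in KO Ly6C+ MFs, and of Cmbl, the gene with the lowest difference. Adam19 and Nav2 have further windows that are not shown. Of those, an Adam19 window holds the other AGGTCA match and another Adam19 window holds none. Capitals mark the reverse strand match to AGGTCA in the Adam19 window shown (bases 110 to 115). The Nav2 and Cmbl windows shown hold none, and a match is a description of the letters alone.
Adam19 (chr11:46054252-46054551, plus strand): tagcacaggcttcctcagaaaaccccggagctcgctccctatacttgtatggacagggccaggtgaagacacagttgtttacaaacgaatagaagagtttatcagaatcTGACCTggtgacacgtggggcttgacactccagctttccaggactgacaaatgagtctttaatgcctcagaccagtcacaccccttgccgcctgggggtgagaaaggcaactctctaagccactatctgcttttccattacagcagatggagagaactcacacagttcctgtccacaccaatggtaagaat
Nav2 (chr7:48958823-48959122, plus strand): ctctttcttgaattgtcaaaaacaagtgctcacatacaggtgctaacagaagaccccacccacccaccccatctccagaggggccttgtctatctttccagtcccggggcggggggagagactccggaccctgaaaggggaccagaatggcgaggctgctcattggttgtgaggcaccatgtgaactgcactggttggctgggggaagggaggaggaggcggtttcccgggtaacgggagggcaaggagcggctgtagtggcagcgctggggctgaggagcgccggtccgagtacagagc
Cmbl (chr15:31568583-31568882, plus strand): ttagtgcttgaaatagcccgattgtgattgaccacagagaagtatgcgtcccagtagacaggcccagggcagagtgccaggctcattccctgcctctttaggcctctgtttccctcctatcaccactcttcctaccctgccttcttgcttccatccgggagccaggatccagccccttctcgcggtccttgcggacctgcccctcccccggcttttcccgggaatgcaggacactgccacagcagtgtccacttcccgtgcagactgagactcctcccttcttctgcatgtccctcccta

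Cmbl encodes carboxymethylenebutenolidase, a hydrolase whose human form activates ester prodrugs in the liver and intestine. In day 2 Ly6C- MFs it was at 6.95, 6.76, 6.47, 6.30 and 6.64 on the KO arrays, and ran between 7.54 and 8.04 with a median of 7.85 on the WT arrays. The highest KO array did not reach the lowest WT array. The difference of -1.16 (SE 0.12, 2.24-fold) was -1.20 against WT replicates 1 to 3 and -1.13 against replicates 4 to 6, so the sets differed little. In Ly6C+ MFs Cmbl was near its lowest level in all groups. KO averaged 5.27 ± 0.15 and WT 5.17 ± 0.23 at day 1 (SD, n = 4 each), and KO 5.35 ± 0.19 (n = 5) and WT 5.29 ± 0.12 (n = 6) at day 2. Those groups overlapped, and neither difference, 0.10 (95% interval -0.18 to 0.38) and 0.05 (-0.19 to 0.29), passed. At day 4 the KO arrays were at 6.52, 6.70, 6.45 and 6.24 and the WT arrays at 7.02, 6.72, 7.28 and 7.38. The 4 KO values lay under the 4 WT values, narrowly for replicate 2 of each. The difference of -0.63 (SE 0.14, 95% interval -0.91 to -0.35) missed the threshold (adjusted p = 0.0595, limma with Benjamini-Hochberg adjustment over all genes). It passed without WT replicate 2 (-0.76, adjusted p = 0.0114) or without KO replicate 2 (-0.70, adjusted p = 0.0438), and over all alternatives the adjusted p ran between 0.0114 and 0.5.

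Aspa encodes aspartoacylase, which splits N-acetylaspartate into acetate and aspartate and is best known from oligodendrocytes. Its highest value on any array, 6.20, was below the median of every array, so it was dim throughout. Aspa in day 2 Ly6C- MFs was at 4.86, 5.01, 5.16, 5.13 and 5.25 on the KO arrays and ran between 5.29 and 6.20 with a median of 5.72 on the WT arrays. The WT values came in separate sets: replicates 1 to 3 were at 6.20, 6.04 and 6.01 and replicates 4 to 6 at 5.42, 5.30 and 5.29. The difference between KO and WT was -0.63 (SE 0.13). The KO mean of 5.08 ± 0.15 (SD, n = 5) compares with 6.08 ± 0.10 in the first set and 5.34 ± 0.07 in the second (SD, n = 3 each). In Ly6C+ MFs of day 2 the same split was seen, with WT at 5.59 ± 0.09 in replicates 1 to 3 and 5.17 ± 0.12 in replicates 4 to 6 (SD, n = 3 each), beside 5.13 ± 0.07 in KO (SD, n = 5). There the difference was -0.25 (SE 0.13, adjusted p = 0.341 by limma), or -0.46 (adjusted p = 0.00161) and -0.04 (adjusted p = 0.905) against each set. At day 4 KO was at 5.31 ± 0.13 and WT at 5.40 ± 0.11 (SD, n = 4 each), and at day 1 both were at 5.34 ± 0.13 (SD, n = 4 each). In day 2 Ly6C- MFs both WT sets lay above every KO array, by little at KO replicate 5.

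**Figure D1:**
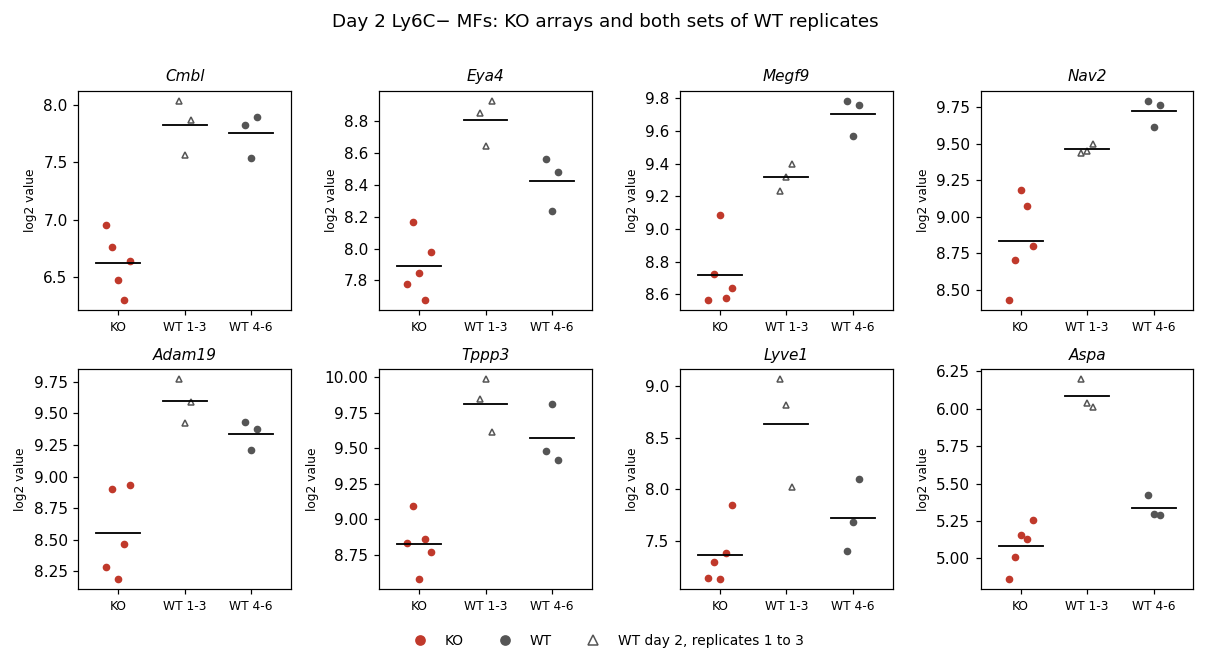
Log2 values in day 2 Ly6C- MFs of KO arrays (red) and of WT replicates 1 to 3 (open triangles) and 4 to 6 (grey), with the mean of each set as a line, and one vertical scale per gene. Both WT sets lie above all KO arrays for every gene but Lyve1, and the means of WT replicates 1 to 3 and 4 to 6 are 8.64 and 7.72 for Lyve1 and 6.08 and 5.34 for Aspa.

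Adam19 encodes meltrin beta, a membrane metalloproteinase that sheds neuregulin and other surface proteins. Its KO arrays were below all WT arrays at day 1 and in both subsets at day 2. Its day 2 Ly6C- MFs were at 8.28, 8.90, 8.19, 8.46 and 8.93 on the KO arrays, against a range of 9.21 to 9.77 with a median of 9.43 on the WT arrays (difference -0.91, SE 0.13). The difference was -1.04 against WT replicates 1 to 3 and -0.78 against replicates 4 to 6. The Ly6C+ arrays of day 2 did not enter the choosing comparison but are not independent of it. They share replicate numbers with the Ly6C- arrays and may share animals, which the labels do not say, and same-numbered arrays deviated together from their group means with r between 0.0429 and 0.285 in KO (over 0.1 in 4 of 5 pairs) and between 0.0108 and 0.600 in WT (5 of 6 pairs). On them the KO arrays were at 8.17, 8.65, 8.07, 8.33 and 8.48 and the WT arrays ran between 8.99 and 9.15 with a median of 9.05. All 5 KO values lay under all 6 of WT. The difference of -0.73 (SE 0.13, 1.66-fold) passed (adjusted p = 0.00127, limma), and passed too against WT replicates 1 to 3 (-0.74, adjusted p = 0.00108) and 4 to 6 (-0.72, adjusted p = 0.0163). At day 1 the KO arrays were at 7.57, 7.84, 8.41 and 8.14 and the WT arrays at 8.48, 8.49, 8.80 and 8.75. No KO array reached the lowest WT array. The difference of -0.64 (SE 0.15, 95% interval -0.94 to -0.34) did not pass (adjusted p = 0.197, limma), though it did without KO replicate 3 (-0.78, adjusted p = 0.021). At day 4 the groups overlapped, with KO at 9.71 ± 0.21 and WT at 9.68 ± 0.16 (SD, n = 4 each) and a difference of 0.03 (95% interval -0.26 to 0.33). The KO difference at day 4 minus that in day 2 Ly6C+ MFs was 0.76 (SE 0.19, 95% interval 0.37 to 1.15), which did not pass over all genes (adjusted p = 0.173, limma) but did with WT day 2 replicates 1 to 3 alone (0.77, adjusted p = 0.0325).

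Lyve1 encodes a receptor for hyaluronan, the long sugar chain of the matrix, and is known from lymphatic endothelium and from a class of resident tissue MFs. Lyve1 in day 2 Ly6C- MFs was at 7.14, 7.29, 7.13, 7.38 and 7.85 on the KO arrays and ran between 7.40 and 9.07 with a median of 8.06 on the WT arrays. KO replicate 5 lay within the WT range. The difference of -0.82 (SE 0.18) was -1.28 against WT replicates 1 to 3 and -0.37 against replicates 4 to 6, whose means were 8.64 ± 0.55 and 7.72 ± 0.35 (SD, n = 3 each). In Ly6C+ MFs Lyve1 stayed between 6.37 and 6.81 on every array of days 1 and 2. KO and WT differed there by 0.05 (95% interval -0.37 to 0.48) at day 1 and by 0.01 (-0.36 to 0.37) at day 2. At day 4 KO was at 7.93 ± 0.49 and WT at 7.80 ± 0.15 (SD, n = 4 each), with KO replicate 2 at 7.23 and the other 3 KO arrays above every WT array. Of 5 markers of lymphatic endothelium read beside it, 4 were below the array median on all arrays of every group. Prox1, which sets the identity of that endothelium, was at 5.30 ± 0.04 in KO (SD, n = 5) and 5.30 ± 0.10 in WT (SD, n = 6) Ly6C- MFs. The fifth, Pdpn, was at 11.81 ± 0.21 in KO and 11.83 ± 0.25 in WT.

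Megf9 encodes a membrane protein with repeated EGF-like domains. The KO arrays of day 2 Ly6C- MFs had Megf9 at 8.57, 8.72, 9.09, 8.57 and 8.64, against a range of 9.23 to 9.79 with a median of 9.48 on the WT arrays. No KO array reached the WT range. The difference of -0.79 (SE 0.13) was -0.60 against WT replicates 1 to 3 and -0.99 against replicates 4 to 6, the opposite order of the sets to that of Lyve1 and Aspa. Outside Ly6C- MFs the groups overlapped. KO was at 7.68 ± 0.15 and WT at 7.70 ± 0.14 at day 1 (SD, n = 4 each), KO at 7.83 ± 0.19 (n = 5) and WT at 8.02 ± 0.39 (n = 6) in Ly6C+ MFs of day 2, and KO at 8.04 ± 0.22 and WT at 8.25 ± 0.13 at day 4 (SD, n = 4 each). None of these differences passed (adjusted p between 0.5 and 1, limma), the most negative being -0.21 (95% interval -0.51 to 0.10) at day 4.

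Nav2 encodes a neuron navigator, a microtubule-binding protein that guides the growth of nerve processes. Among day 2 Ly6C- MFs it was at 8.43, 8.70, 9.18, 9.07 and 8.80 on the KO arrays, against a range of 9.44 to 9.79 with a median of 9.56 on the WT arrays. The difference of -0.76 (SE 0.11) was -0.62 against WT replicates 1 to 3 and -0.89 against replicates 4 to 6. In day 2 Ly6C+ MFs the KO arrays were at 7.29, 7.41, 7.90, 7.77 and 7.27 and the WT arrays ran between 7.94 and 8.20 with a median of 8.09. The 5 KO values were again under every WT value. The difference of -0.54 (SE 0.11, 1.46-fold) passed (adjusted p = 0.0047, limma) and stayed past the threshold with each array left out in turn. It was -0.61 (adjusted p = 0.00108) against WT replicates 1 to 3 and -0.48 (adjusted p = 0.0578) against replicates 4 to 6, and did not pass when the spread was estimated from the arrays of the compared groups alone (adjusted p = 0.117). At day 1 Nav2 was at 7.25, 7.46, 7.57 and 7.28 on the KO arrays and at 7.69, 7.75, 7.75 and 7.69 on the WT arrays, without overlap. That difference, -0.33 (SE 0.13, 95% interval -0.59 to -0.07), did not pass (adjusted p = 1, limma). At day 4 it was -0.08 (95% interval -0.34 to 0.18), with 3 of 4 KO arrays below every WT array and KO replicate 1 above them all.

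Tppp3 encodes a member of the tubulin polymerization promoting proteins, known as a marker of cells of the tendon sheath. In day 2 Ly6C- MFs it was at 8.83, 9.09, 8.58, 8.86 and 8.77 on the KO arrays, against a range of 9.42 to 9.99 with a median of 9.71 on the WT arrays. The groups did not overlap. The difference of -0.87 (SE 0.13) was -0.99 against WT replicates 1 to 3 and -0.74 against replicates 4 to 6. In Ly6C+ MFs the groups overlapped. KO was at 10.26 ± 0.19 and WT at 10.32 ± 0.23 at day 1 (SD, n = 4 each), and KO at 10.11 ± 0.12 (n = 5) and WT at 9.97 ± 0.35 (n = 6) at day 2. At day 4 KO was at 8.87 ± 0.24 and WT at 8.68 ± 0.31 (SD, n = 4 each). The 3 differences were -0.06, 0.14 and 0.19 with overlap in each, and none passed (adjusted p between 0.65 and 1, limma). Of 6 tendon cell markers read beside it (Scx and Tnmd among them), between 4 and 6 were below the array median on all arrays of each group, and 0 of the 6 passed in the 3 tested comparisons of KO with WT.

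Eya4 encodes a transcriptional coactivator and phosphatase that works with homeobox factors in development. Day 2 Ly6C- MFs had it at 7.78, 8.17, 7.85, 7.68 and 7.98 on the KO arrays, against a range of 8.24 to 8.93 with a median of 8.60 on the WT arrays. KO replicate 2 came within a small distance of the lowest WT array without reaching it. The difference of -0.73 (SE 0.10) was -0.92 against WT replicates 1 to 3 and -0.54 against replicates 4 to 6. Among day 2 Ly6C+ MFs KO was at 6.66, 6.60, 6.51, 6.50 and 6.62, against WT values between 6.71 and 7.08 with a median of 6.89. The groups did not overlap, yet the difference of -0.30 (SE 0.10, 95% interval -0.50 to -0.10) did not pass (adjusted p = 0.107, limma). It passed with WT replicates 1 to 3 alone (-0.34, adjusted p = 0.0244). At day 1 KO was at 6.35 ± 0.12 and WT at 6.41 ± 0.19, and at day 4 KO was at 7.89 ± 0.20 and WT at 7.98 ± 0.16 (SD, n = 4 each), with overlap and differences of -0.06 and -0.09.

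**Figure D2:**
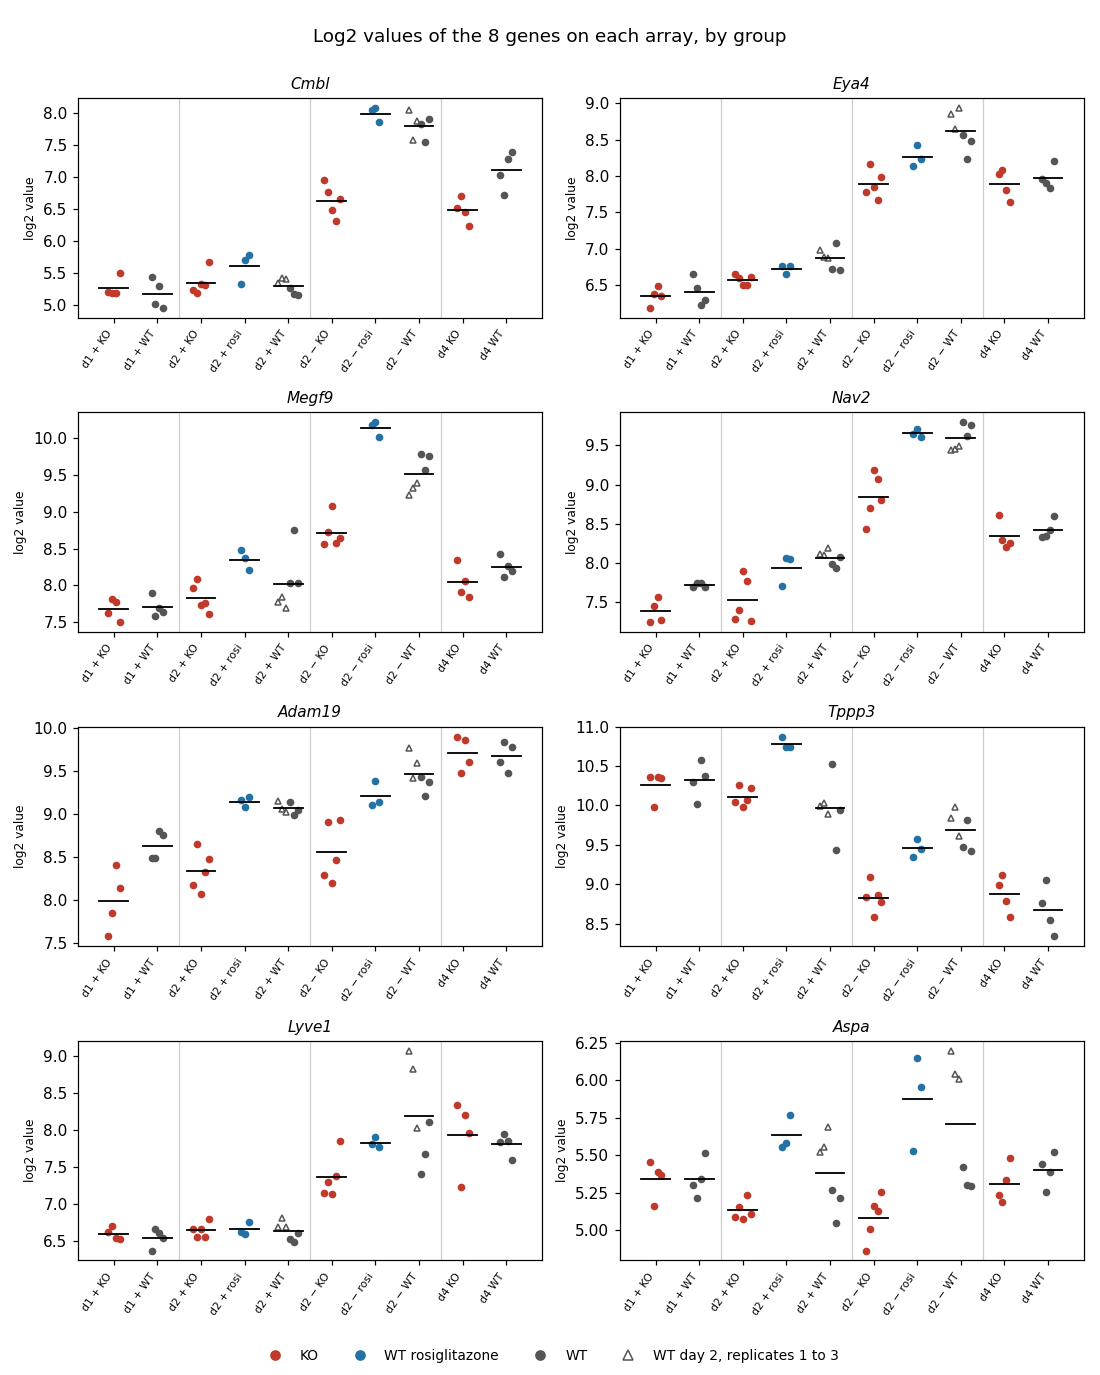
Log2 values of the 8 genes on all 44 arrays by day (d1, d2, d4), subset (+ for Ly6C+, − for Ly6C-) and group, with group means as lines and one vertical scale per gene; KO is red, WT rosiglitazone blue, WT grey and WT day 2 replicates 1 to 3 open triangles. Adam19 of KO lies below WT in both Ly6C+ panels and not at day 4, and the day 2 means of Tppp3 are lower in Ly6C- than in Ly6C+ MFs of all 3 groups.

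Set side by side, the KO differences outside the choosing comparison passed for few of the 8 genes. Some were dim in KO and WT Ly6C+ MFs of days 1 and 2, and whether that hides a lower level was not tested. Group means there were 5.17 to 5.35 for Cmbl, 5.13 to 5.38 for Aspa and 6.54 to 6.64 for Lyve1. Array medians were between 6.64 and 6.77. In day 2 Ly6C+ MFs 2 of 8 passed as lower, Adam19 and Nav2, where 0.787% of all genes passed in that direction, and 3 of 8 did not overlap and were lower, again with 0.787% of all genes. The median of the 8 was -0.22, beside -0.02 over all genes. With WT replicates 1 to 3 alone 4 of 8 passed as lower (Adam19, Nav2, Eya4 and Aspa; 7.14% of all genes), and with replicates 4 to 6 alone 1 of 8 did (Adam19; 0.838% of all genes). At day 1 0 of 8 passed in limma (2 had an unadjusted p below 0.05; 0.0351% of all genes passed, 0.00502% as lower), and the 2 without overlap were Adam19 and Nav2, where 1.6% of all genes were lower without overlap. At day 4 0 of 8 passed (1 with an unadjusted p below 0.05; 0.0652% of all genes passed, 0.0201% as lower), and Cmbl alone did not overlap, where 1.68% of all genes were lower without overlap. The test of whether the KO difference itself changed with the day passed for 0 of 8 genes in each of 3 comparisons (0.015% of all genes for day 4 minus day 1, 0.0301% for day 4 minus day 2 and 0.01% for day 2 minus day 1). An unadjusted p below 0.05 was seen for 2, 3 and 0 of the 8. With WT day 2 replicates 1 to 3 alone 1 of 8 passed for day 4 minus day 2 (Adam19; 4.8% of all genes) and 1 for day 2 minus day 1 (Aspa, -0.46, adjusted p = 0.0487; 5.57% of all genes).

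**Figure D3:**
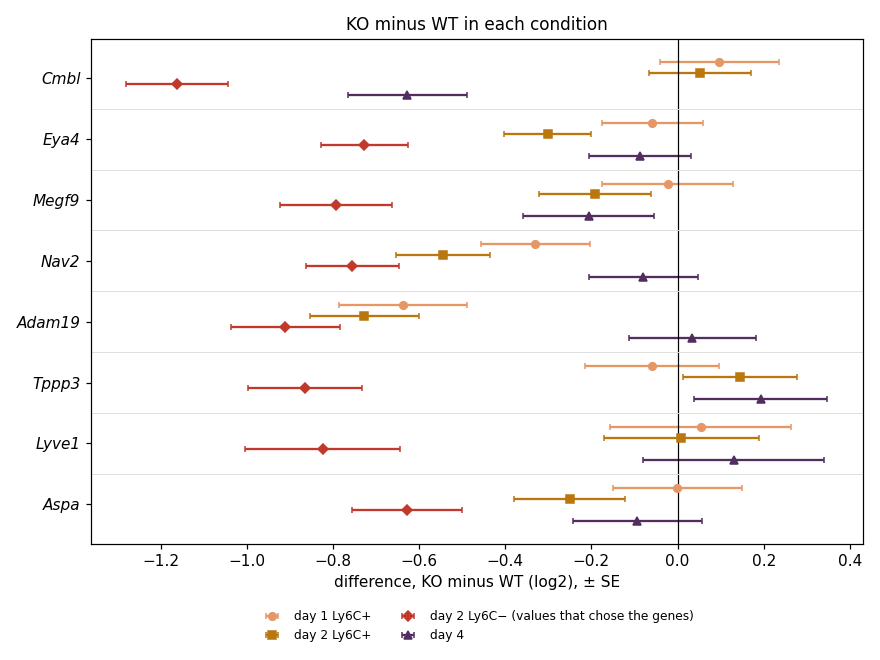
Difference KO minus WT on the log2 scale (horizontal, bars ± SE) for each gene (vertical) in 4 conditions, where the red diamonds are the values that chose the genes. In Ly6C+ MFs of days 1 and 2 Adam19 is at -0.64 and -0.73 and Nav2 at -0.33 and -0.54, both are near 0 at day 4, and Cmbl is at -0.63 at day 4.

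Markers of other cells moved in the same comparison as Adam19 and Nav2. In day 2 Ly6C+ MFs 4 of 6 markers of blood endothelium were lower in KO (Emcn by 0.80, Cdh5 by 0.63, Pecam1 by 0.36 and Tek by 0.34), with a summed linear level between 661 and 749 on the KO arrays and between 623 and 1047 on the WT arrays. Egfl7 (difference -0.22) and Kdr, which went the other way (0.23), did not pass. On all arrays of the group 2 of the 6 were below the array median in KO and 1 in WT. Also lower were 1 of 7 fibroblast markers (Dcn, difference -0.72, summed level 802 to 972 in KO and 789 to 1742 in WT) and 1 of 6 dendritic cell markers (Xcr1, difference -0.40, 690 to 842 in KO and 758 to 957 in WT). Of 4 Schwann cell markers 1 was higher (Cnp, difference 0.40, 723 to 897 in KO and 627 to 816 in WT). Their part in the result was not tested. No marker list had a gene that passed at days 1 or 4, where 0.0351% and 0.0652% of all genes passed. Lists this short could thus hardly show a pass, and the part of other cells was not tested there. Adam19 and Nav2 at day 1 and Cmbl at day 4 were without overlap. In day 2 Ly6C- MFs, whose values chose the genes, the summed level of the 8 neutrophil markers was 884 to 1161 on the KO arrays and 656 to 847 on the WT arrays, and its part was not tested. In bulk RNA of sorted cells, fewer cells of a type and less RNA per cell cannot be told apart.

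Relatives of the 8 genes were read to see whether they moved with them. In day 2 Ly6C+ MFs 0 of 8 other ADAM genes, 0 of 2 other navigators, 0 of 7 EYA relatives and partners, 0 of 4 other MEGF genes, 0 of 2 TPPP genes, 0 of 11 genes of hyaluronan handling and 0 of 7 of N-acetylaspartate handling passed between KO and WT. Of all 19938 genes 217 passed as higher and 157 as lower there. Counts of 0 in lists this short are near that share and do not show that the relatives stayed unchanged. Among the other navigators Nav1 had a difference of -0.21 (adjusted p = 0.155, limma) and Nav3 one of -0.06 (adjusted p = 0.681, limma). Of 16 established PPAR target genes 1 passed, Fabp5, a fatty acid binding protein, which was higher in KO by 0.83 (SE 0.16, adjusted p = 0.00324). Of 16 genes of resident tissue MFs 0 passed. At day 1 0 genes of these lists passed, where 0.0351% of all genes did. At day 4, where 0.0652% of all genes passed, 1 passed. It was Slc13a3, a carrier of dicarboxylates that also takes up N-acetylaspartate, which was higher in KO by 0.50 (SE 0.10, adjusted p = 0.0381, limma).

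Of the 8 genes 5 were higher and 1 was lower in Ly6C- than in Ly6C+ MFs under rosiglitazone. The rosiglitazone arrays took no part in the choice, which however favours genes with signal in WT Ly6C- MFs. On the rosiglitazone arrays Ly6C- minus Ly6C+ MFs passed for 6 of 8 genes (limma, n = 3 and 3). Cmbl was higher in Ly6C- MFs by 2.38 (SE 0.16, 5.22-fold, adjusted p = 1.98e-15), with 8.04, 8.07 and 7.85 on the Ly6C- arrays and 5.32, 5.70 and 5.78 on the Ly6C+ arrays. Megf9 was higher by 1.79 (SE 0.18), Nav2 by 1.71 (SE 0.15), Eya4 by 1.54 (SE 0.14) and Lyve1 by 1.17 (SE 0.24). Tppp3 was lower by 1.33 (SE 0.18, adjusted p = 1.42e-07), at 9.34, 9.58 and 9.45 in Ly6C- against 10.87, 10.74 and 10.74 in Ly6C+ MFs. These 6 genes did not overlap between the subsets. Of all genes 14.6% passed as higher and 8.68% as lower, and 18.2% and 15.1% were higher and lower without overlap. Adam19 (0.06, 95% interval -0.28 to 0.41) and Aspa (0.25, -0.10 to 0.59) did not pass. Markers of other cells differed between the same arrays. Of 6 dendritic cell markers 2 were lower in Ly6C- MFs (Cd209a by 1.58 and Flt3 by 1.29; summed linear level 441 to 514 in Ly6C- and 748 to 933 in Ly6C+), as were 1 of 6 of blood endothelium (Cdh5 by 0.83; 537 to 558 and 634 to 716) and 1 of 5 of T and NK cells (Klrb1c by 0.33; 202 to 253 and 224 to 276). Of 5 lymphatic markers 1 was higher (Pdpn by 1.65; 2566 to 4261 and 1070 to 1299), and of 8 neutrophil markers 2 were higher and 2 lower (551 to 1170 and 609 to 671). The other 4 lymphatic markers did not pass and were below the array median on all of these arrays, so the lymphatic sum mostly follows Pdpn. Their part in the result was not tested.

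The subset differences of KO and of WT share arrays with the choice and are given as values. In KO Ly6C- minus Ly6C+ was 1.28 for Cmbl, against 2.50 in WT. It was 1.31 against 1.74 for Eya4, 0.89 against 1.49 for Megf9 and 0.72 against 1.55 for Lyve1. Nav2 had 1.31 in KO against 1.52 in WT and Adam19 0.22 against 0.40, the genes that also passed as lower in KO Ly6C+ MFs. Mean Aspa was 5.08 in Ly6C- and 5.13 in Ly6C+ MFs of KO, and 5.71 and 5.38 in those of WT. For Tppp3 the difference was -1.29 in KO, against -0.28 in WT, and was -1.33 under rosiglitazone. The WT values moved with the replicate set. With replicates 1 to 3 and 4 to 6 they were 1.91 and 1.19 for Lyve1, 0.50 and 0.16 for Aspa, 0.52 and 0.28 for Adam19, and -0.16 and -0.40 for Tppp3. For Cmbl they were 2.43 and 2.56, for Eya4 1.89 and 1.59, for Megf9 1.55 and 1.43, and for Nav2 1.32 and 1.72.

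**Figure D4:**
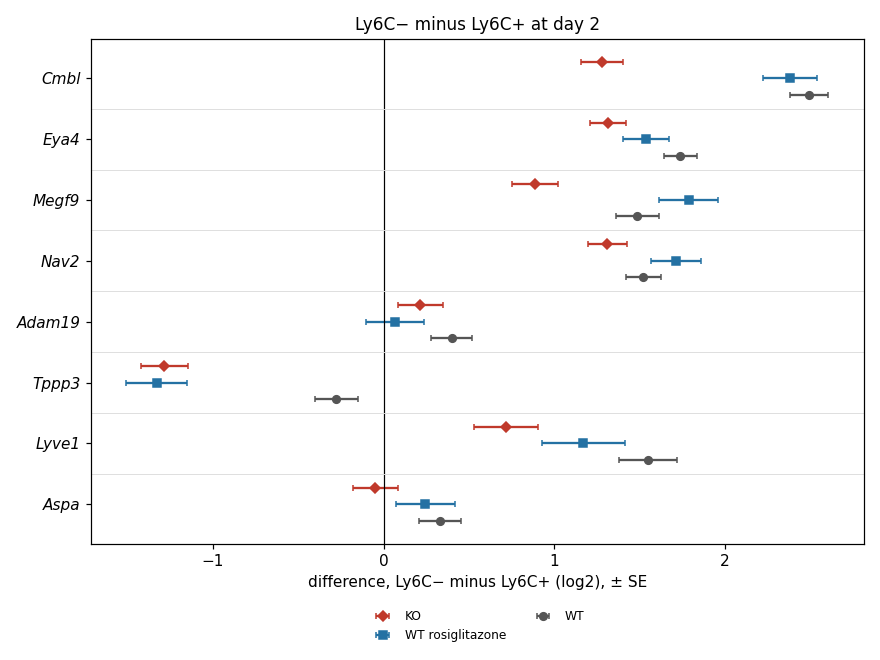
Ly6C- minus Ly6C+ at day 2 on the log2 scale (horizontal, bars ± SE) for each gene (vertical) in KO (red diamonds), WT rosiglitazone (blue squares) and WT (grey circles). Cmbl is at 1.28, 2.38 and 2.50 in that order, and Tppp3 at -1.29, -1.33 and -0.28.

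Set against untreated WT at day 2, rosiglitazone arrays differed for few of these genes. In Ly6C+ MFs 1 of 8 passed, Tppp3, where 5.52% of all genes passed as higher and 2.58% were higher without overlap. It was at 10.87, 10.74 and 10.74 with rosiglitazone, against a range of 9.44 to 10.52 with a median of 9.97 without. All 3 rosiglitazone arrays were higher than all 6 others, by 0.82 on average (SE 0.15, 1.76-fold, adjusted p = 0.000691, limma). The difference was 0.82 against each WT replicate set (adjusted p = 6e-05 for 1 to 3 and 0.0227 for 4 to 6), and did not pass when the spread was estimated from the compared groups alone (adjusted p = 0.116). Megf9 had a difference of 0.33 (adjusted p = 0.163), which was 0.58 (adjusted p = 0.000633) against WT replicates 1 to 3 and 0.08 (adjusted p = 0.883) against replicates 4 to 6, and without WT replicate 5, its highest WT array at 8.76, was 0.48 (adjusted p = 0.0099). With WT replicates 1 to 3 thus 2 of 8 passed (Tppp3 and Megf9; 13.3% of all genes as higher), and with replicates 4 to 6 also 2 (Tppp3 and Aspa, Aspa by 0.46, adjusted p = 0.0363; 0.597% of all genes). In the same comparison 3 of 6 markers of blood endothelium were lower under rosiglitazone (Cdh5 by 0.58, Kdr by 0.52 and Pecam1 by 0.44; summed level 634 to 716 with rosiglitazone and 623 to 1047 without). So was Pdpn of the lymphatic list (difference -0.92), while of the dendritic cell list Flt3 was higher by 0.42 and Ccr7 had a difference of -0.58. Their part was not tested. Of 16 PPAR target genes 2 were higher (Scd2 by 0.54 and Cpt1a by 0.46) and 3 lower (Hilpda, difference -1.31, Fabp4, -0.65, and Fabp5, -0.60).

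In Ly6C- MFs the rosiglitazone comparison uses the WT arrays of the choice and is a description. Megf9 was at 10.18, 10.22 and 10.03 with rosiglitazone, against a range of 9.23 to 9.79 without, which was the 1 gene of the 8 without overlap (difference 0.63, SE 0.15; 0.562% of all genes were higher without overlap). It was 0.82 and 0.43 higher than WT replicates 1 to 3 and 4 to 6. The other 7 differed by between -0.36 (Lyve1) and 0.20 (Cmbl), with overlap. The sets changed the sign for 3 of them: Lyve1 was at -0.81 against replicates 1 to 3 and 0.10 against 4 to 6, Aspa at -0.21 and 0.54, and Nav2 at 0.19 and -0.07.

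Over days 1, 2 and 4 the genes followed different courses in MFs labelled Ly6C+. From day 1 to day 2 in KO 0 of 8 passed (1 with an unadjusted p below 0.05, 8.64% of all genes passed). In WT 3 of 8 passed as higher at day 2, Eya4 by 0.47 (SE 0.11, adjusted p = 0.00309), Adam19 by 0.44 (SE 0.13, adjusted p = 0.0307) and Nav2 by 0.35 (SE 0.12, adjusted p = 0.0445), with all 6 day 2 arrays above all 4 day 1 arrays in each, where 6.51% of all genes passed as higher and 3.74% were higher without overlap. Whether the courses of KO and WT differ was the test of changing KO differences above, which passed for 0 of 8. Adam19 lost the call without WT day 1 replicate 1 (0.39, adjusted p = 0.104) or 2 (0.39, adjusted p = 0.116) or day 2 replicate 1 (0.42, adjusted p = 0.0568), and Nav2 without any one of the 4 WT day 1 arrays or of WT day 2 replicates 1, 2, 3 and 6 (differences between 0.33 and 0.36, adjusted p between 0.0529 and 0.11). Adam19 also lost it with WT day 2 replicates 1 to 3 (0.45, adjusted p = 0.0566) or 4 to 6 alone (0.43, adjusted p = 0.0931), and Nav2 with 4 to 6 (0.28, adjusted p = 0.219). Both lost it when each array was centred on its median (Adam19 0.40, adjusted p = 0.0679; Nav2 0.31, adjusted p = 0.104), and Nav2 with the replicate number as a block (0.38, adjusted p = 0.053). Eya4 passed in all 18 alternatives. Calls were gained by Adam19 in KO without KO day 1 replicate 3 (0.49, adjusted p = 0.0285), by Tppp3 in WT without WT day 2 replicate 4 (-0.46, adjusted p = 0.0197) and by Megf9 in WT with day 2 replicates 4 to 6 alone (0.57, adjusted p = 0.00765). In the WT step markers of other cells passed too: Cdh5 of blood endothelium was higher at day 2 by 0.58 (summed level 623 to 1047 at day 2 and 672 to 795 at day 1), the fibroblast marker Dcn by 0.58 (789 to 1742 and 897 to 1032) and the dendritic cell marker Xcr1 by 0.40 (758 to 957 and 798 to 1043). Pdpn was lower by 0.90 (lymphatic list, a sum that mostly follows Pdpn, 1147 to 2816 and 3372 to 3991), as were 3 of 8 neutrophil markers (S100a8 by 1.33; 630 to 755 and 1082 to 1276). Their part was not tested.

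From day 2 to day 4, a step at which the Ly6C signal of the arrays also changed, 6 of 8 passed in each genotype. Cmbl was higher at day 4 by 1.13 (SE 0.13) in KO and 1.81 (SE 0.13) in WT, Adam19 by 1.37 (SE 0.14) and 0.61 (SE 0.13), Eya4 by 1.32 (SE 0.11) and 1.10 (SE 0.11), and Lyve1 by 1.29 (SE 0.20) and 1.17 (SE 0.19). Nav2 was higher by 0.82 (SE 0.12) in KO and 0.35 (SE 0.12) in WT, and Tppp3 was lower by 1.24 (SE 0.15) and 1.29 (SE 0.14). None of these 6 genes overlapped between the days. Megf9 and Aspa did not pass in either genotype. In WT, replicates 1 to 3 of day 2 alone gave Megf9 a difference of 0.48 (adjusted p = 0.00102), against -0.03 (adjusted p = 0.898) with replicates 4 to 6, and Nav2 one of 0.28 (adjusted p = 0.0793), against 0.42 (adjusted p = 0.0155). Without WT day 2 replicate 5 Megf9 passed too (0.37, adjusted p = 0.00797), and without WT day 4 replicate 4 Nav2 did not (0.29, adjusted p = 0.0595). Of all genes 22.3% passed as higher and 22.5% as lower in KO, and 23.8% and 26% in WT. Without overlap 21% were higher and 19.7% lower in KO, and 16.9% and 13.4% in WT. Markers of other cells changed at the same step. Of 6 myoblast markers 3 were higher at day 4 in each genotype (Des by 1.43 in KO and 1.41 in WT), with a summed level of 658 to 711 at day 4 and 489 to 558 at day 2 in KO, and of 625 to 765 and 453 to 556 in WT. Of 7 muscle fibre markers 4 were higher in each (Acta1 by 1.01 in KO and 1.32 in WT) and 1 was lower in KO, with 1132 to 1236 at day 4 and 823 to 910 at day 2 in KO, and 1218 to 1366 and 771 to 858 in WT. Fibroblast markers were higher for 3 of 7 in KO (Sparc by 1.37 and Dcn by 1.28 among them; 1084 to 1399 and 802 to 972) and 1 of 7 in WT (Dcn by 0.69; 1077 to 1591 and 789 to 1742). Blood endothelium had 1 of 6 lower in KO (Cdh5 by 0.36; 575 to 651 and 661 to 749) and 4 of 6 in WT (Cdh5 by 1.18 and Emcn by 1.04 among them; 567 to 599 and 623 to 1047). Pdpn was lower in both, with a summed level of the lymphatic list of 825 to 1074 at day 4 and 2116 to 3157 at day 2 in KO, and of 788 to 919 and 1147 to 2816 in WT. That sum mostly follows Pdpn, as the other 4 lymphatic markers were below the array median on all of these arrays. Prox1 passed in WT (-0.22). Of the tendon cell list Scx (-0.22), Mkx (-0.21) and Fmod (-0.20) passed in KO and Thbs4 (0.20) in WT. Of the Schwann cell list Cnp (0.53 in KO, 1.11 in WT) and Sox10 (-0.23 in both) passed, and Erbb3 (0.28) in WT. Cd79a of the B cell list passed in both (-0.30 in KO, -0.36 in WT) and Pax5 (-0.21) in WT. Nkg7 of the T and NK cell list passed in WT (0.23). The dendritic cell marker Clec9a was higher by 0.98 and 1.00, with 1 of 6 markers of that list lower in KO and 3 in WT. Neutrophil markers were lower for 4 of 8 in KO (452 to 618 at day 4 and 734 to 886 at day 2) and 6 of 8 in WT (471 to 494 and 630 to 755). Their part was not tested.

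Against day 2 Ly6C- MFs, given as values since those arrays chose the genes, day 4 MFs had a higher Adam19 in KO by 1.16 (SE 0.14), with all 4 day 4 arrays above all 5 others (13% of all genes were higher without overlap), and by 0.21 in WT. Megf9 was lower at day 4 by 0.67 in KO and 1.26 in WT, and Nav2 by 0.50 and 1.17. Cmbl, Tppp3 and Eya4 differed from their day 2 Ly6C- level by -0.15, 0.04 and 0.00 in KO and by -0.69, -1.02 and -0.64 in WT. With WT day 2 replicates 1 to 3 and 4 to 6 the WT differences were 0.08 and 0.34 for Adam19, -1.07 and -1.46 for Megf9, -1.04 and -1.30 for Nav2, -0.72 and -0.65 for Cmbl, -1.14 and -0.89 for Tppp3, and -0.83 and -0.45 for Eya4. Those of Lyve1 (-0.83 and 0.08) and Aspa (-0.68 and 0.06) changed sign with the set. The level of Cmbl over all groups thus ordered as WT Ly6C- with and without rosiglitazone (7.98 and 7.79, overlapping), WT day 4 (7.10), KO day 2 Ly6C- (6.63), which overlapped both its neighbours, KO day 4 (6.47), and then all Ly6C+ groups of days 1 and 2 between 5.17 and 5.60, whose ranges overlapped.

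The 8 genes did not form one pattern over the 44 arrays, which share these 10 groups and a single normalization. Over the 28 pairs Pearson's r ran between -0.662 and 0.945 with a median of 0.494, the highest for Cmbl with Eya4. After the group means were removed r ran between -0.528 and 0.549 with a median of 0.0351. The genes most like each in pattern over the arrays were Eya4, Pi4kb and Slc37a2 for Cmbl (r between 0.919 and 0.945), Lpl, Syne1 and Apbb2 for Eya4 (0.948 to 0.954), Nav2, Mrtfb and Sort1 for Megf9 (0.894 to 0.905), and Mcm2, Snx27 and Megf9 for Nav2 (0.905 to 0.916). Hp, S100a11 and Srebf2 were most like Tppp3 (0.885 to 0.893), Brip1, Mical2 and Slc39a8 like Lyve1 (0.883 to 0.891), Zfp87, Myo9a and Kctd21 like Adam19 (0.808 to 0.812), and Slc25a51, Ubap2 and Abhd17c like Aspa (0.617 to 0.666). These likenesses are descriptions.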

How the data were processed

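The deposited values were log2 expression values, made by the authors with RMA (named in the submitters' processing notes), for 35556 probe sets of a one-colour Affymetrix mouse gene array. The sources used here do not give the tool's version or the probe set definition. Values were used as deposited. The platform annotation gave exactly 1 symbol to 21789 probe sets, which represented 19938 genes, each by its probe set with the highest mean. The 1621 probe sets with several symbols and the 12146 with none were left out.

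One mean per group was fitted over all 44 arrays with limma 3.58.1 (lmFit, eBayes) in R 4.3.3 (34 residual degrees of freedom), after the script was tested on simulated data. Tests were two-sided, and genes with an adjusted p under 0.05 (Benjamini-Hochberg, over all genes) passed. Each difference subtracts the group named second. Contrasts that use the KO or WT day 2 Ly6C- arrays, which chose the genes, were left untested. The 8 genes, the gene lists and the comparisons were chosen with earlier results of these data known. Named beside the 8 were up to 4 genes of a list that passed in a comparison, the 3 genes most like each member in Pearson's r over arrays (predicted genes left out), and Pparg, Lyz2, Adgre1 and the Ly6c1 and Ly6c2 probe set as label checks, with Fabp4 as a PPARγ target. Other names (Alox5, Vaultrc5, Nav1, Nav3, Prox1, Pdpn and the marker examples) were chosen after their values were seen. Same-number arrays were checked for pairing by the correlation of their deviations from the group means. Every pair was above 0.1 in 1 comparison, Ly6C- with Ly6C+ MFs under rosiglitazone (3 pairs, r between 0.13 and 0.44), and a replicate block changed no call of the 8 genes there. Alternatives were other samples in the fit, median centring, a filter at a mean log2 of 6 (7 of the 8 genes passed it, Aspa did not), the mean of all probe sets, trended and robust variances, the replicate block, each WT day 2 replicate set, and leaving out each array. Promoters were read from RefSeq (GRCm38.p6) with Python 3.11.15.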

Additional observations from a re-analysis of the deposited data

Results flagged for a closer look

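In 3 of the 64 combinations of a gene and a group of 4 to 6 arrays, the highest or lowest array stood apart from the rest by Dixon's test at 95%, which chance gives in about 1 in 20 groups. Cmbl in KO Ly6C+ MFs of day 1 was at 5.50 in replicate 4, while the other 3 arrays were all at 5.19. Tppp3 in the same group was at 9.98 in replicate 2, against 10.34 to 10.37 in the others. Megf9 in WT Ly6C+ MFs of day 2 was at 8.76 in replicate 5, with the next array at 8.04 and the lowest at 7.69, and the rosiglitazone difference of Megf9 passed without that array (0.48, adjusted p = 0.0099 by limma).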

How the results depend on the processing

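Of 1732 values of the 8 genes recomputed in the tested comparisons, 1693 kept their direction where called and their side of the threshold, 22 lost the call, 17 gained it and 0 called values reversed. Aspa has no value under the filter on dim probe sets. In day 2 Ly6C+ MFs KO against WT called 2 genes, 1 with the spread from the compared groups alone, 4 with WT replicates 1 to 3 and 1 with replicates 4 to 6. Rosiglitazone in Ly6C+ MFs called 1, 0 with the compared groups alone, 2 under the replicate block (Megf9, 0.58, adjusted p = 0.0023) and 2 with either WT set, where same numbers do not pair the arrays. WT day 2 against day 1 called 3, and 1 after median centring. The change of the KO difference, 0 in the main analysis, called 1 with WT replicates 1 to 3 for day 4 minus day 2 and 1 for day 2 minus day 1. With single arrays left out the calls ran 0 to 1 for KO against WT at day 1 and at day 4, 2 to 2 in day 2 Ly6C+ MFs, 1 to 4 for WT and 0 to 1 for KO day 2 against day 1, 5 to 7 for WT day 4 against day 2, and 1 to 2 for rosiglitazone in Ly6C+ MFs. The replicate block moved no other count of the 8 genes by over 1.5 times. Counts over all genes moved more: 374 genes in day 2 Ly6C+ MFs of KO and WT became 13 to 3008, 2218 under rosiglitazone became 0 to 5435, 1931 in WT day 2 against day 1 became 537 to 3403, 1723 in KO became 948 to 2313 with arrays left out, and 6 and 2 for the change of the KO difference became 0 to 958 and 0 to 1111. Centring moved the share of higher calls to 47.0% from 67.2% in WT and to 59.3% from 70.2% in KO for day 2 against day 1, and to 66.5% from 49.6% under rosiglitazone. It shifted the median gene by 0.05 or less on the log2 scale. The causes were not tested.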

Other observations

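Genes of other lists also passed between the subsets under rosiglitazone, where 14.6% of all genes passed as higher and 8.68% as lower in Ly6C- MFs. No list was tested for enrichment. Of 16 PPAR target genes 8 were higher in Ly6C- than in Ly6C+ MFs, among them Lpl, which releases fatty acids from lipoproteins, by 3.04, the fatty acid binding proteins Fabp4 by 2.32 and Fabp5 by 2.04, and Angptl4, an inhibitor of Lpl, by 1.82 on the log2 scale (limma, n = 3 and 3). Of 16 genes of resident tissue MFs 8 were higher and 2 lower, with Gas6, a bridge to dying cells, higher by 2.92, the folate receptor Folr2 by 2.24 and Igfbp4 by 1.81. Genes of hyaluronan handling, the ligand of Lyve1, went both ways: 3 of 11 were higher (Stab1, Hmmr by 0.75 and Hyal2 by 0.55) and 3 lower (Tnfaip6, difference -1.08, Cd44, -0.65, and Has2, -0.46). Of 7 relatives and partners of Eya4 2 were higher, Dach1 by 1.17 and Eya1 by 0.95, and the other ADAM, MEGF, navigator and TPPP genes had 0 that passed.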
